A study of Mus musculus with 6 samples.

Results

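The cyclins, cyclin-dependent kinases and kinase inhibitors that control the G1 phase of the cell cycle were followed in intestinal epithelial cells with and without caspase-8, a protease that death receptors use to trigger apoptosis and that also holds necroptosis in check. Every probe set annotated to 1 of 10 genes was taken, namely Ccnd1, Ccnd2, Ccnd3, Ccne1, Ccne2, Cdk4, Cdk6, Cdkn1a, Cdkn1b and Cdkn2b. These gave 27 of the 45037 probe sets tested, and the 10 genes stood among 18193. The caspase-8 deficient group was 3 arrays of cells from C57BL/6 mice with the floxed caspase-8 gene (casp8 flox) and villinCre. The floxed control group was 3 arrays from C57BL/6 mice that carry the same floxed gene but are negative for villinCre. The villin promoter drives Cre in epithelial cells. Both groups carry the floxed allele, and the recombinase is the difference that the labels give. Neither the age of the mice nor the segment of the gut is given in the labels, and the titles call the arrays biological replicates without saying whether animals were pooled.

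In early G1, D-type cyclins bind CDK4 and CDK6, and the complexes phosphorylate the retinoblastoma protein RB. RB then lets go of E2F transcription factors, which switch on the E-type cyclins and the genes of DNA replication, and cyclin E with CDK2 carries the cell into S phase. Inhibitors oppose this: p21 (Cdkn1a) and p27 (Cdkn1b) act on cyclin complexes broadly, and p15 (Cdkn2b) binds CDK4 and CDK6. In the gut these cyclins serve the dividing cells of the crypt, while p21 and p27 are features of cells that leave it for the villus.

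Without caspase-8, the D-type cyclins Ccnd1 and Ccnd2 and their kinase partners Cdk6 and Cdk4 lay lower on all 3 arrays, and the inhibitor Cdkn1a lay higher on all 3. The other 5 genes overlapped between the groups. Of all genes 22.7% had separate groups, 11.2% lower and 11.5% higher. The log2 differences were −1.08 for Ccnd1, −0.87 for Cdk6, −0.50 for Ccnd2, −0.33 for Cdk4 and 0.20 for Cdkn1a. In limma's moderated test adjusted over all genes, 0 of the 10 members passed the threshold of 0.05, against 0.775% of all genes (0.308% higher and 0.467% lower), with 4 members at an unadjusted p under 0.05 (16.6% of all genes). With n = 3 per group, an exact two-sided permutation test of a single gene cannot go below p = 0.1, so separated arrays alone cannot decide a gene.

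Promoter sequences are shown for the 3 members in which the arrays separated and in which a letter search found the pattern of a known G1 regulator. They run from 250 bases before to 50 bases after the transcription start, on the strand of the gene, as listed by RefSeq for GRCm38.p6. Of the 10 members 7 had a window there, with 9 windows in all. Ccnd1, Ccnd2 and Ccne2 had no window and were not searched. Capitals mark CACGTG, the E box that MYC and MAX bind, in Cdk4 and Cdk6. In Cdkn1a they mark CATGNNNNNNCATG, the spacing of the half-site cores in many p53 sites. The Cdk4 window is chr10:127063285-127063584, the Cdk6 window chr5:3343643-3343942 and the Cdkn1a window, at the upstream of its annotated starts, chr17:29090729-29091028, all on the plus strand.
Cdk4: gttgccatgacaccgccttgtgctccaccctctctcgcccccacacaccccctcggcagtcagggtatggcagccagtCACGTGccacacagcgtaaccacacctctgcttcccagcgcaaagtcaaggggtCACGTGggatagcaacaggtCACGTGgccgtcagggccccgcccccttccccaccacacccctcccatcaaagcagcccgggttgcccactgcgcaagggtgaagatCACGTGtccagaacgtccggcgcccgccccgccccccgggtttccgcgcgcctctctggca
Cdk6: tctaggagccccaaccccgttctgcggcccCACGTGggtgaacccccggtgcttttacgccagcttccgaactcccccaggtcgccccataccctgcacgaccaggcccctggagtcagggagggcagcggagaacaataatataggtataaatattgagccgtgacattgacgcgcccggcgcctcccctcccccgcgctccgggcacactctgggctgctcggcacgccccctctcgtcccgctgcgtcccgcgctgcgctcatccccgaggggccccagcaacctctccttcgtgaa
Cdkn1a: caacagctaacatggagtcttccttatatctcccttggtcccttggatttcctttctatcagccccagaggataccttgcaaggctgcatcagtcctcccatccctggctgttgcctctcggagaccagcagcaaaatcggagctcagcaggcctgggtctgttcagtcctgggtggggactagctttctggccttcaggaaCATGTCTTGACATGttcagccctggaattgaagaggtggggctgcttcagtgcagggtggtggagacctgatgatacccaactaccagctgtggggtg

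The Cdk4 window held 4 E boxes, whose first bases lay 172, 118, 98 and 11 bases before the start, and the Cdk6 window held 1, at 220 bases before it. Of all 32851 windows 7.15% held at least 1 E box, and 8 held 4 or more. The Cdkn1a match began 48 bases before the upstream start, and 0.712% of all windows held that pattern on either strand. The E2F site was searched as TTTCGCGC, TTTGGCGC, TTTCCCGC and TTTGCCGC on both strands, and none of these letters stood in the 9 windows, against 0.323%, 0.514%, 1.07% and 0.441% of all windows. The core CTTTGAT, bound by the Wnt effectors of the TCF family, stood in the Cdk4 window and in 3.73% of all. GGGCGG, the GC box, stood in 7 of the 9 windows and in 35.7% of all, and TATAAA in the Cdk6 window and in 13.6% of all. In the windows shown, 0 matches of different patterns overlapped. A match describes the letters and is not evidence of binding.

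Cyclin D1 (Ccnd1), the D cyclin induced by growth factor and Wnt signals, had the largest difference of the 10 genes. Its brightest probe set read 9.36, 8.998 and 8.39 on the log2 scale in caspase-8 deficient replicates 1, 2 and 3, against 9.92, 10.43 and 9.64 in floxed control replicates 1, 2 and 3. The highest deficient array lay 0.285 below the lowest control, so the groups did not overlap. The mean was 8.92 ± 0.49 in deficient cells and 9.999 ± 0.40 in control cells (SD, n = 3 each), a 2.12-fold lower level. On the log2 scale this was −1.08, with an SE of 0.28 and a 95% confidence interval of −1.72 to −0.44, and it missed the threshold (limma, adjusted p = 0.126).

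The other 2 probe sets of Ccnd1 gave log2 differences of −1.12 and −0.94, also without overlap. The first read 8.11, 7.76 and 7.09 in deficient cells, against 8.65, 9.22 and 8.44 in control cells. The second read 9.26, 9.11 and 8.46 in deficient cells, against 9.80, 10.08 and 9.75 in control cells. All 3 probe sets placed the arrays in the same order within each group, with deficient replicate 3 lowest and control replicate 2 highest.

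Cyclin D2 (Ccnd2), a second partner of CDK4 and CDK6, was measured by 7 probe sets, all with a lower mean in deficient cells. By the brightest one the values were 10.49, 10.41 and 10.16 in deficient cells and 10.54, 11.24 and 10.78 in control cells. The groups were separated by only 0.045, between deficient replicate 1 and control replicate 1. The log2 difference was −0.50, with an SE of 0.19 and a 95% confidence interval of −0.94 to −0.06 (limma, adjusted p = 0.252). Across the 7 probe sets the log2 difference ran from −0.75 to −0.33, and the groups were separate in 6. The 1 with overlap was the dimmest, with 6.50, 6.83 and 6.48 in deficient cells, against 6.70, 7.22 and 6.87 in control cells. Control replicate 2 was the highest control and deficient replicate 3 the lowest deficient array in all 7.

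Cyclin D3 (Ccnd3), the third D cyclin, gave no common direction. Its brightest probe set read 6.66, 6.65 and 6.56 in deficient cells, against 6.73, 7.10 and 6.28 in control cells. The 3 deficient arrays lay within the range of the controls, and the log2 difference was −0.08 (95% confidence interval −0.54 to 0.37, limma adjusted p = 0.868). The other probe sets stood at 0.21 and −0.03, both with overlap.

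**Figure D1:**
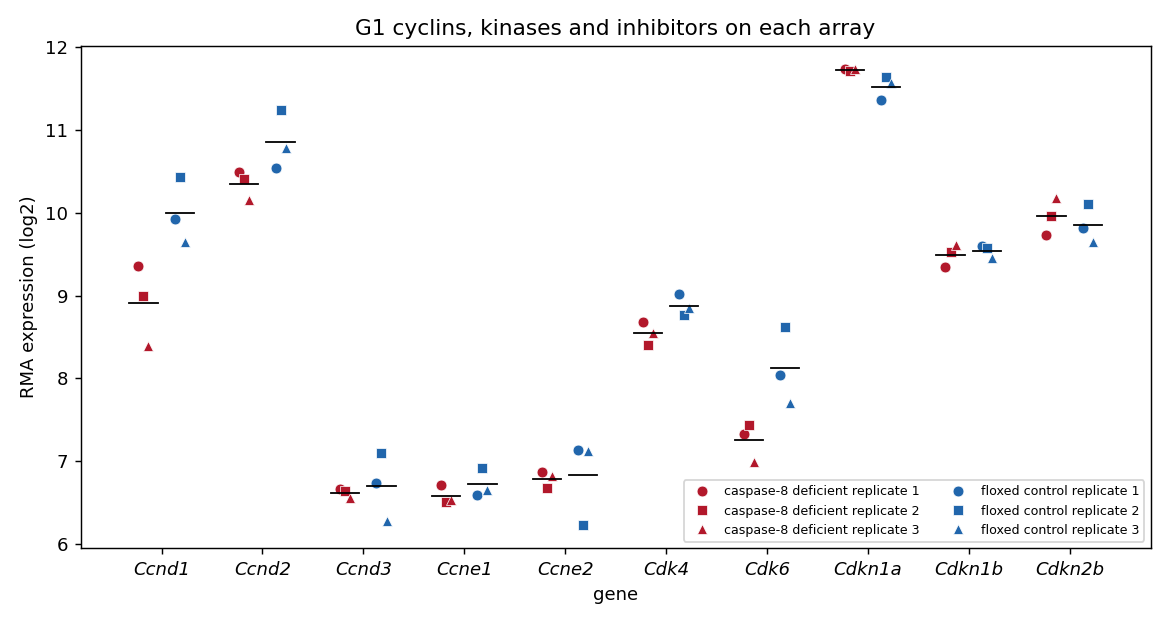
RMA expression (log2) of each of the 10 genes by its brightest probe set, with caspase-8 deficient arrays in red left of floxed control arrays in blue, 1 marker per array and black bars at the group means. Ccnd1, Ccnd2, Cdk4 and Cdk6 lie lower and Cdkn1a higher on all 3 deficient arrays, and heights of different genes are not comparable.

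Cyclins E1 and E2 (Ccne1 and Ccne2), which E2F induces late in G1, overlapped between the groups. Ccne1 read 6.71, 6.51 and 6.53 in deficient cells, against 6.59, 6.91 and 6.66 in control cells, with deficient replicate 1 above control replicates 1 and 3. The log2 difference was −0.14 (95% confidence interval −0.44 to 0.16, limma adjusted p = 0.638). Its second probe set read 6.30, 6.47 and 6.30 in deficient cells, against 6.44, 6.59 and 6.77 in control cells, a difference of −0.25. There the overlap was a matter of 1 pair, deficient replicate 2 lying 0.033 above control replicate 1.

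Ccne2 read 6.87, 6.67 and 6.82 in deficient cells, against 7.14, 6.23 and 7.12 in control cells. Control replicate 2, the highest control for Ccnd1 and Ccnd2, was the lowest of all arrays here, and control replicates 1 and 3 lay above all deficient arrays. The log2 difference was −0.04 (95% confidence interval −0.59 to 0.51, limma adjusted p = 0.953).

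CDK6 (Cdk6), a kinase partner of the D cyclins, came second in size. Its brightest probe set read 7.33, 7.44 and 6.99 in deficient cells, against 8.04, 8.62 and 7.71 in control cells, 1.83-fold lower. The log2 difference was −0.87, with an SE of 0.23 and a 95% confidence interval of −1.41 to −0.33 (limma, adjusted p = 0.141). A second probe set read 7.46, 7.34 and 6.81 in deficient cells, against 7.89, 8.13 and 7.82 in control cells, a difference of −0.74. Both showed separate groups. The third was dim and narrow, with 4.41, 4.44 and 4.30 in deficient cells, against 4.44, 4.60 and 4.54 in control cells, and its difference of −0.14 came with overlap.

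CDK4 (Cdk4), the other partner of the D cyclins, differed less, with little spread among arrays. Its brightest probe set read 8.69, 8.41 and 8.54 in deficient cells, against 9.02, 8.77 and 8.85 in control cells. All deficient arrays lay below all controls, by at least 0.085. The log2 difference was −0.33 (SE 0.13, 95% confidence interval −0.63 to −0.04, limma adjusted p = 0.252). This probe set is of a type that may bind related sequences. The other Cdk4 probe sets both stood at −0.26, 1 of them with separate groups, the other with the top deficient array level with the bottom control at 8.02. Unlike Ccnd1, Ccnd2 and Cdk6, Cdk4 had its highest control in replicate 1 and its lowest deficient array in replicate 2 in all 3 probe sets.

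The inhibitor p21 (Cdkn1a), which p53 induces, was the one member with separate groups in the upward direction. Its brightest probe set read 11.74, 11.71 and 11.73 in deficient cells, against 11.36, 11.64 and 11.57 in control cells. The deficient arrays agreed to an SD of 0.016, against 0.14 in control cells. The log2 difference was 0.20 (SE 0.12, 95% confidence interval −0.07 to 0.47, limma adjusted p = 0.430). The second probe set read 11.03, 10.88 and 11.02 in deficient cells, against 10.35, 10.54 and 10.70 in control cells. Its difference of 0.45 (95% confidence interval 0.15 to 0.75) was 1.36-fold and did not pass over all probe sets (limma, adjusted p = 0.202).

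For p27 (Cdkn1b) and p15 (Cdkn2b) the groups overlapped. Cdkn1b read 9.34, 9.52 and 9.61 in deficient cells, against 9.60, 9.57 and 9.46 in control cells, a log2 difference of −0.05 (95% confidence interval −0.33 to 0.22, limma adjusted p = 0.868). A dimmer probe set gave −0.06. Cdkn2b, which TGF-beta induces, read 9.73, 9.96 and 10.18 in deficient cells, against 9.82, 10.10 and 9.65 in control cells. The highest and the second lowest of the 6 arrays were both deficient, and the log2 difference was 0.10 (95% confidence interval −0.28 to 0.48, limma adjusted p = 0.796).

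**Figure D2:**
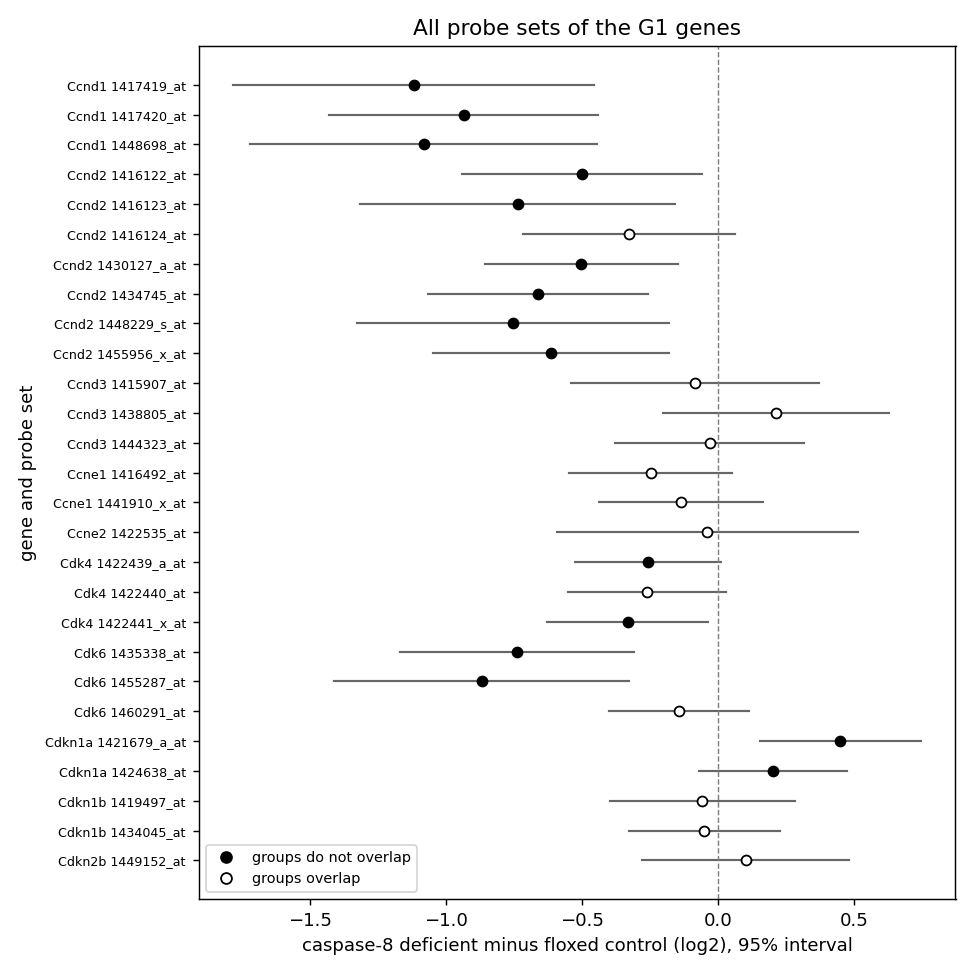
Log2 difference, caspase-8 deficient minus floxed control, of the 27 probe sets with 95% intervals of limma before adjustment; filled points mark probe sets whose groups do not overlap. All 3 Ccnd1 and 6 of 7 Ccnd2 probe sets are filled left of 0, both Cdkn1a probe sets are filled right of 0, and 12 of the 27 are open.

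By gene, the groups were separate in 5 of 10 members, against 22.7% of all genes. Of these, 4 were lower (11.2% of all genes) and 1 higher (11.5%). The median log2 difference was −0.11 over the members and 0.02 over all genes. By probe set the groups were separate in 15 of 27, against 19.8% of all probe sets, 13 of them lower (9.75% of all) and 2 higher (10.1% of all). In the probe set test 0 of 27 passed, against 0.318% of all (0.107% higher and 0.211% lower), and 13 had an unadjusted p under 0.05, against 14.1% of all (limma, lowest adjusted p = 0.134). Probe sets of 1 gene report the same transcript and are not independent. In bulk cells, a smaller share of dividing cells and less RNA per cell cannot be told apart.

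A measure of RNA integrity differed among the control arrays, and it is given here beside the members with the largest differences. On these arrays Gapdh is read near both ends of its transcript, and the log2 excess of the 3′ reading, which grows as RNA degrades, was 0.29, 0.21 and 0.23 in deficient replicates 1, 2 and 3, against 0.68, 0.93 and 0.22 in control replicates 1, 2 and 3. Control replicate 2, with the highest Gapdh excess, was the highest control in 18 of the 27 member probe sets, among them all of Ccnd1, Ccnd2 and Cdk6. Of the 18, 7 belong to Ccnd2. The share over all probe sets was not counted, so this is not shown to be particular to the members. Control replicate 3, whose Gapdh excess is like that of the deficient arrays, lay above all 3 deficient arrays in every probe set of Ccnd1, Ccnd2, Cdk4 and Cdk6, and below all 3 in both of Cdkn1a. Where the groups do not overlap, this holds for every control array by definition. It is therefore no separate check of those probe sets, and leaving out controls cannot turn their sign. With control replicate 3 as the only control, the log2 difference was −0.72 for Ccnd1, −0.45 for Cdk6, −0.43 for Ccnd2, −0.30 for Cdk4 and 0.16 for Cdkn1a (limma, adjusted p between 0.742 and 0.819, with the lone control assumed to vary like the deficient arrays). Without control replicate 2 alone it was −0.87 for Ccnd1, −0.62 for Cdk6, −0.31 for Ccnd2, −0.39 for Cdk4 and 0.26 for Cdkn1a. With the Gapdh excess as a covariate it was −0.68, −0.43, −0.31, −0.33 and 0.22 for the same genes (limma, adjusted p between 0.614 and 0.758). The part of RNA integrity in the members' differences was not tested beyond these values. With each array weighted by its own spread, Ccnd1 at −0.98, Cdk6 at −0.70 and Cdk4 at −0.48 passed (limma, adjusted p = 0.0259, 0.0436 and 0.0361). That weighting called 1406 of all 18193 genes, against 141 without it.

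**Figure D3:**
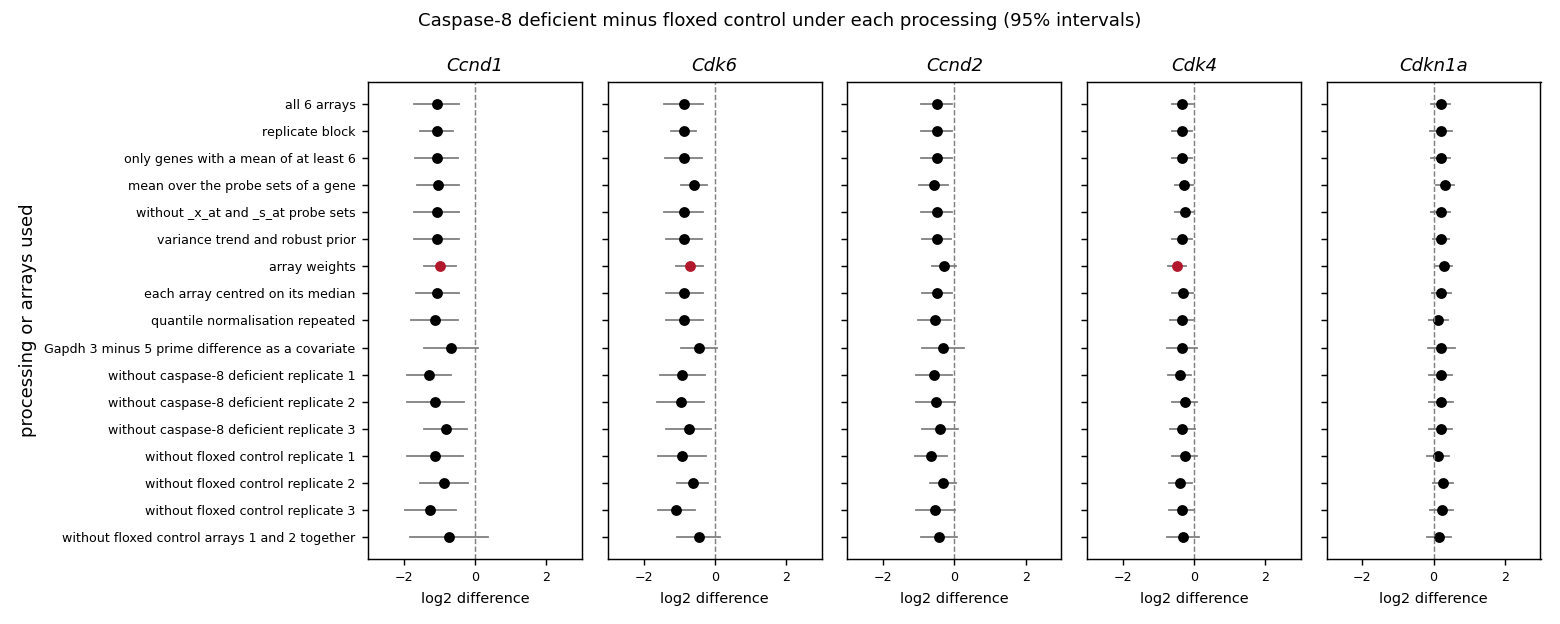
Log2 difference, caspase-8 deficient minus floxed control, with 95% intervals for the 5 genes whose groups do not overlap, under the 16 alternatives and with all 6 arrays; red marks an adjusted p under 0.05. Every point lies on the same side of 0 as with all 6 arrays, and red appears only under array weights, for Ccnd1, Cdk6 and Cdk4. Because the groups do not overlap, leaving out arrays could not move a point across 0.

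The wider G1 machinery was read from lists of related genes. Of 19 other kinase subunits, inhibitors and turnover factors, 0 passed, with a median log2 difference of −0.05. CDK2 (Cdk2), the partner of cyclin E, read 7.32, 7.36 and 7.31 in deficient cells, against 7.71, 7.85 and 7.73 in control cells, a difference of −0.43 with separate groups (limma, adjusted p = 0.116). Fbxo4, an F-box protein linked to cyclin D1 turnover, read 8.21, 8.18 and 8.49 in deficient cells, against 7.81, 7.51 and 7.81 in control cells, a difference of 0.59 (limma, adjusted p = 0.111). Fbxo4 was thus higher, and Cdk2 lower, on all 3 deficient arrays.

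Of the 13 RB and E2F family genes 0 passed, with a median of −0.10. The groups were separate in 2 of the 13, both lower, against 22.7% of all genes separate and 11.2% separate and lower. They are the atypical E2Fs that repress E2F targets, E2f8 at −0.68 and E2f7 at −0.37 (limma, adjusted p = 0.0944 and 0.285). E2f8 read 8.03, 7.93 and 7.52 in deficient cells, against 8.54, 8.56 and 8.43 in control cells. A second, dim E2f8 probe set stood at −0.11.

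Of 18 measured E2F targets of the step into S phase, 0 passed, yet all 18 had a negative difference, with a median of −0.47 and separate groups in 12, all lower (11.2% of all genes). Control replicate 2 was the highest of the 6 arrays in 10 of the 18. Mcm6, a subunit of the replicative helicase, read 8.91, 8.79 and 8.63 in deficient cells, against 9.40, 9.40 and 9.11 in control cells (−0.53, limma adjusted p = 0.124). Tk1, the thymidine kinase of S phase, stood at −0.45 (limma, adjusted p = 0.150). Of 17 mitosis genes 0 passed and all 17 were negative, with a median of −0.36, separate groups in 11, all lower (11.2% of all genes), and control replicate 2 highest in 14. How often control replicate 2 was highest over all genes was not counted. The part of RNA integrity in the medians of these lists was not tested. The spindle motor Kif11 stood at −0.53 and Cdc20, an activator of the anaphase-promoting complex, at −0.54 (limma, adjusted p = 0.0975 and 0.131). The other probe sets stood at −0.32 and −0.44 for Kif11 and at −0.22 and −0.19 for Cdc20.

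Among 13 measured Wnt targets of the crypt, 2 fell and 0 rose, against 0.467% and 0.308% of all genes, and the median was −0.36. Sox9, a crypt transcription factor, fell to 6.48, 6.48 and 6.21 in deficient cells, against 7.22, 7.32 and 7.24 in control cells (−0.87, limma adjusted p = 0.0263). Lgr5, the stem cell receptor, fell to 5.96, 6.05 and 5.14 in deficient cells, against 7.30, 7.72 and 6.97 in control cells (−1.62, limma adjusted p = 0.0488), with a second, dim probe set at −0.02. Neither passed with the Gapdh excess as a covariate, where Sox9 stood at −0.83 and Lgr5 at −1.25 (limma, adjusted p = 0.200 and 0.357). By the mean over its probe sets Lgr5 stood at −0.82 (limma, adjusted p = 0.0881) and Sox9 at −0.70 (0.0550), and with the replicate number as a block Sox9 also missed the threshold (0.0541). Both were lost when any 1 array other than deficient replicate 1 was left out.

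The inhibitors answer to p53 and to TGF-beta, whose other targets were counted next. Of 18 p53 targets other than Cdkn1a, 0 passed, 13 were positive and the median was 0.19. The groups were separate in 9 (22.7% of all genes), 7 of them higher (11.5%) and 2 lower (11.2%). Pmaip1, the BH3-only protein NOXA, read 10.93, 11.41 and 10.89 in deficient cells, against 10.01, 9.94 and 10.82 in control cells (0.82, limma adjusted p = 0.182). Tnfrsf10b, a TRAIL receptor, was dim and stood at 0.65 (limma, adjusted p = 0.116).

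The SMAD and TGF-beta response was measured by 17 genes, of which 1 fell (0.467% of all genes did) and 0 rose (0.308%), with a median of 0.12. Of the 17 genes 13 were positive. The groups were separate in 7 (22.7% of all genes), 5 of them higher (11.5%) and 2 lower (11.2%). Tgfbi, a secreted matrix protein, fell to 10.32, 10.38 and 10.39 in deficient cells, against 11.18, 11.22 and 10.96 in control cells (−0.76, limma adjusted p = 0.0390), and its other 3 probe sets stood between −0.82 and −0.59. Adjusted over probe sets, Tgfbi and Lgr5 missed the threshold (limma, adjusted p = 0.0568 and 0.0698) and Sox9 did not (0.0371). The Tgfbi call was lost when any 1 array was left out, with the replicate block (limma, adjusted p = 0.0753) and with the Gapdh covariate, where it stood at −0.62 (0.253). Of 18 FOXO, MYC and growth factor regulators 0 passed, with a median of 0.05. Max, the binding partner of MYC on E boxes, read 10.48, 10.32 and 10.29 in deficient cells, against 9.71, 9.94 and 9.77 in control cells (0.56, limma adjusted p = 0.0886). Myc itself, named here after its values were seen, overlapped between the groups at −0.31 (limma, adjusted p = 0.382). The epidermal growth factor receptor Egfr stood at 0.90 (limma, adjusted p = 0.1004), and its other probe sets ran from −0.07 to 0.78.

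**Figure D4:**
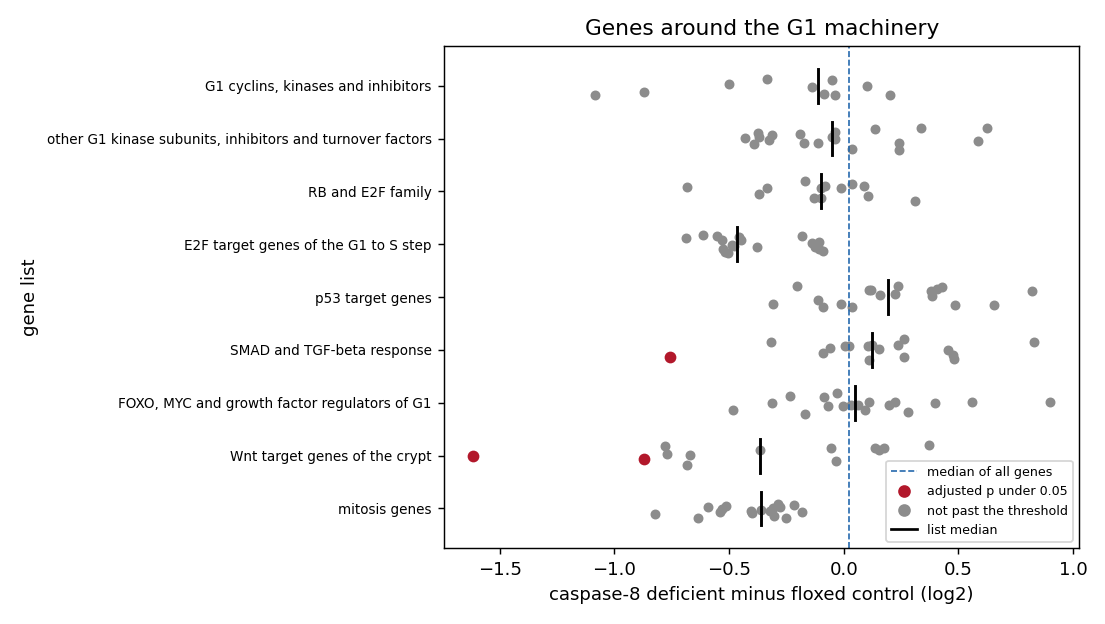
Each point is the log2 difference, caspase-8 deficient minus floxed control, of 1 gene by its brightest probe set, grouped by list, with black bars at list medians and red points past an adjusted p of 0.05. All E2F target and mitosis genes lie left of 0, and the 3 red points are Lgr5, Sox9 and Tgfbi.

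The genes whose profile over the 6 arrays came nearest to Ccnd1, by the root mean square difference of log2 values after centring each gene, were Zfp704 (0.0791), Ppp1r9a (0.101) and Nup210 (0.136), out of 8850 genes with a mean of at least 6 and no provisional name. Nearest to Cdk6 were Nup210 (0.0851), Ammecr1 (0.103) and Osbpl7 (0.106). Nup210, which encodes a nucleoporin, was on both short lists and read 7.32, 7.26 and 6.76 in deficient cells, against 7.98, 8.55 and 7.73 in control cells. These likenesses describe the centred values on 6 arrays only.

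Markers of the tissue and of other cells were read beside the members. The 12 epithelial markers averaged 12.34 to 12.41 on the deficient arrays and 12.27 to 12.36 on the control arrays (mean log2 level), with 0 of 12 past the threshold. Their log2 differences ran from −0.48 to 0.46, with a median of 0.10. The groups were separate in 7 of the 12 (22.7% of all genes), 6 of them higher (11.5%) and 1 lower (11.2%). The 11 T cell markers, averaged 7.37, 7.83 and 7.93 on deficient replicates 1, 2 and 3, against 7.57, 8.16 and 8.04 on control replicates 1, 2 and 3. Of these 11 markers 0 passed, 9 had a negative difference (median −0.20) and 0 had separate groups (22.7% of all genes did). Within the controls the T cell mean and the brightest Ccnd2 probe set had the same order of arrays, and within the deficient arrays the opposite order. The other Ccnd2 probe sets did not share both orders.

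The 11 endothelial markers averaged 3.98 to 6.29 on deficient arrays, the top value in replicate 1, and 3.76 to 4.14 on control arrays. The 12 fibroblast and smooth muscle markers averaged 4.70 to 5.76, again highest in deficient replicate 1, against 4.67 to 5.22. Of both lists 0 genes passed. Without deficient replicate 1 the log2 difference was −1.30 for Ccnd1, −0.91 for Cdk6, −0.57 for Ccnd2, −0.40 for Cdk4 and 0.20 for Cdkn1a. The 8 B and plasma cell markers averaged 5.02 to 5.23 on deficient arrays and 5.23, 5.24 and 6.19 on control replicates 1, 2 and 3, with 0 passed. Control replicate 3 was the highest of the 6 arrays in 7 of these 8. The 9 myeloid markers averaged 6.52 to 6.75 on deficient and 6.60 to 7.10 on control arrays. Of these 9, 1 fell (0.467% of all genes did) and 0 rose (0.308%). It was Lyz2 at −1.54 (limma, adjusted p = 0.00395), a near copy of the Paneth cell gene Lyz1. The groups were separate in 3 of the 9 (22.7% of all genes), 2 lower (11.2%) and 1 higher (11.5%). Without detection calls no marker could be called absent, and the part of these cells in the members' differences was not tested.

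**Figure D5:**
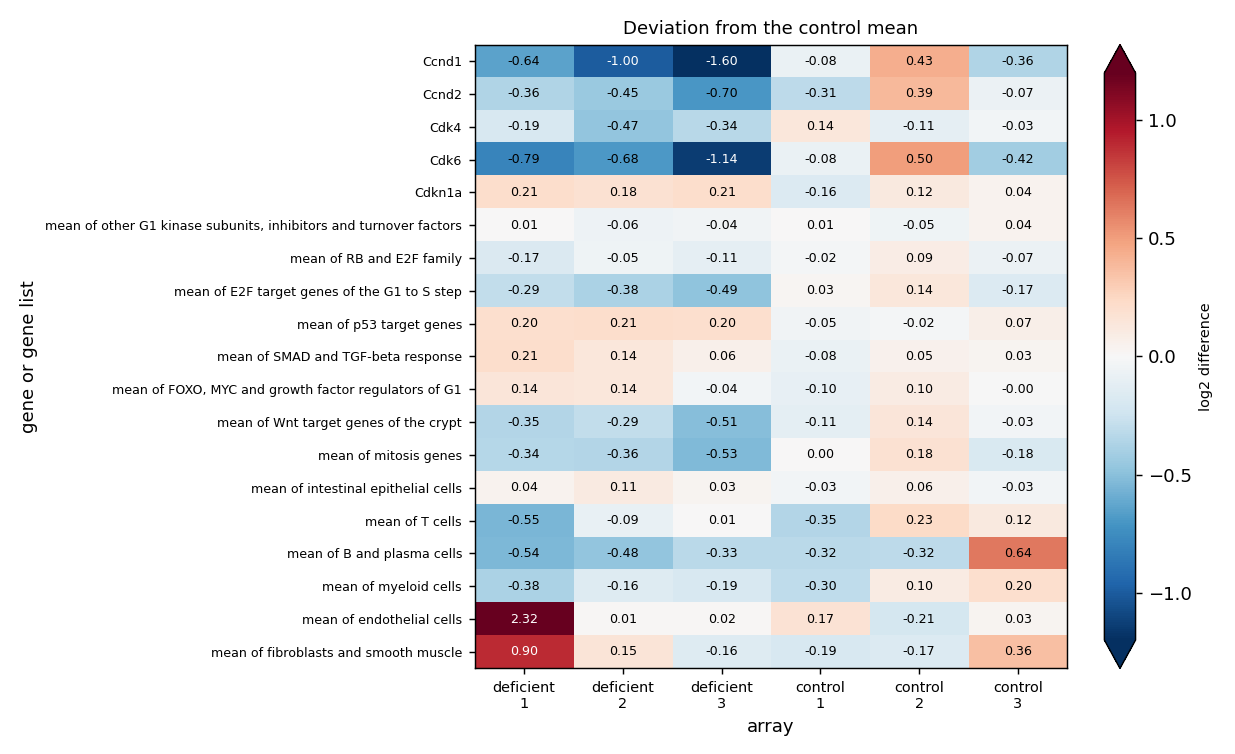
Log2 difference of each array from the mean of the 3 control arrays for the 5 members with separate groups and for the mean of each gene list, with caspase-8 deficient arrays left of floxed control arrays and colours saturating at the ends of the scale. The E2F target and mitosis means are lowest in deficient replicate 3 and highest in control replicate 2, as are Ccnd1 and Cdk6, and the endothelial mean stands out in deficient replicate 1 at 2.32.

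Casp8 was read by 1 probe set at 9.27, 9.56 and 10.40 in deficient cells, against 10.53, 9.74 and 10.24 in control cells, with overlap (log2 difference −0.43, limma adjusted p = 0.518). Which exons Cre removes is not stated in the labels, so this value does not check the genotypes. Correlations between arrays over all genes were 0.984 to 0.995 among deficient arrays, 0.990 to 0.994 among control arrays and 0.979 to 0.991 between them.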

How the data were processed

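Gene expression of intestinal epithelial cells was measured on 6 Affymetrix arrays from biotin-labelled cRNA, per the labels' protocols. The authors deposited log2 expression values made with RMA, per the submitters' processing notes, which give no version. Over all arrays these log2 values lay between 1.13 and 14.1, and the medians of the arrays between 4.85 and 4.91. RMA brings arrays to a common distribution, so only relative changes can be seen. No detection calls were used. Precision is limited by the small number of arrays.

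Of 45101 probe sets 64 controls were left out. The platform annotation, which can be old, paired 34945 of the other 45037 with 1 gene, 932 with several and 9160 with none. Each of the 18193 genes was represented by its probe set with the highest mean over the 6 arrays. Caspase-8 deficient minus floxed control was tested with limma 3.58.1 in R 4.3.3 (lmFit and eBayes, two-sided, no covariate), adjusted by Benjamini-Hochberg over all 18193 genes, and separately over all 45037 probe sets, with a threshold of 0.05. Intervals are 95% and unadjusted. Each p-value rests on the spread among arrays that the titles call biological replicates. The fit was tested on simulated data. Python 3.11.15 with numpy 2.4.6, pandas 2.3.3 and matplotlib 3.10.9 made the tables and plots.

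The members and gene lists were chosen with earlier results of these data known. All members are named, then from each list the genes that passed (up to 4) or else the 2 with the smallest p, and the 3 nearest profiles of the 2 members with the smallest p. Myc, Lyz2 and the marker genes named are exceptions. The alternatives were a replicate block, leaving out dim genes (mean under 6), the mean over probe sets, dropping the _x_at and _s_at types, a robust prior with a variance trend, array weights, median centring, repeated quantile normalisation, the Gapdh excess as a covariate, and leaving out single arrays or control replicates 1 and 2.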

Additional observations from a re-analysis of the deposited data

How the results depend on the processing

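Of the 10 members, 0 passed with all 6 arrays and under 15 of the 16 alternatives, leaving out each array included (0 in each). Under array weights 3 passed, Ccnd1 at −0.98, Cdk6 at −0.70 and Cdk4 at −0.48 (limma, adjusted p = 0.0259, 0.0436 and 0.0361). Of the 27 member probe sets 2 passed there, and how many of all probe sets passed was not counted. That setting weighted deficient replicates 1, 2 and 3 at 0.588, 2.36 and 0.692, and control replicates 1, 2 and 3 at 2.97, 0.445 and 0.789. It called 1406 of the 18193 genes, against 141 in the unweighted fit. Over the 16 alternatives the log2 difference ran from −1.30 to −0.68 for Ccnd1, −1.08 to −0.43 for Cdk6, −0.66 to −0.29 for Ccnd2, −0.48 to −0.26 for Cdk4 and 0.12 to 0.33 for Cdkn1a, with no change of sign. Where arrays were only left out, no change of sign was possible, because the groups of these genes do not overlap.

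The count over all genes was 295 without dim genes, where fewer genes are tested, 252 with the variance trend, 36 with the Gapdh covariate, 5 without control replicates 1 and 2, and 18 to 251 when 1 array was left out (18 without deficient replicate 3, 251 without deficient replicate 1). For the pathway lists, where 3 genes passed, it was 1 with the replicate block, 6 without dim genes, 1 with the mean over probe sets, 23 with array weights, 0 with the Gapdh covariate, 0 without control replicates 1 and 2, and 0 to 2 when 1 array was left out.

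Signs turned for 4 members whose groups overlap. Ccnd3 stood at 0.032 by the mean over probe sets, 0.32 with the Gapdh covariate, 0.34 without control replicates 1 and 2 and −0.30 to 0.11 when 1 array was left out (positive without control replicate 2). Ccne2 stood at 0.018 after repeated quantile normalisation, and at −0.34 to 0.12 when 1 array was left out (positive without deficient replicate 2, control replicate 1 or control replicate 3). Cdkn1b stood at 0.0039 with the Gapdh covariate, 0.036 without control replicates 1 and 2, and −0.11 to 0.024 when 1 array was left out (positive without deficient replicate 1). Cdkn2b stood at −0.0092 to 0.22 when 1 array was left out (negative without deficient replicate 3 or control replicate 3). The causes were not tested.

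Whether replicate numbers pair the samples was not settled. Deviations of same-numbered arrays from their group means correlated at 0.0774, 0.105 and −0.0074 over all genes. Those of differently numbered arrays correlated at −0.128 to 0.012. Deficient replicates 1 and 2 each correlated best with the control of the same number, and deficient replicate 3 did not. With the replicate block 0 members passed, with adjusted p = 0.0775 for Ccnd1 and 0.0751 for Cdk6.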
